A study of Mus musculus with 6 samples.

Results

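The thymus is the chest organ in which T cells develop. Its immature T cells, the thymocytes, build their antigen receptors by cutting and joining gene segments, and they pass through a stage at which the co-receptors CD4 and CD8 are both on the surface. The thymic epithelium forms the stroma that attracts thymocytes and shows them the peptides on which they are selected. The genes described here are 7 thymocyte genes (Rag1, Dntt, Cd8a, Cd8b1, Cd4, Arpp21 and Ptcra) and 3 thymic epithelium genes (Prss16, Foxn1 and Psmb11). Members were all probe sets that the array platform's annotation gives exactly 1 of these gene symbols, with no limit on signal. This gave 22 of 45037 probe sets, 18 for thymocyte genes and 4 for thymic epithelium genes, and 10 of 18193 genes. The genes were chosen for their signal on the single arrays, so these levels are a description.

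The RNA came from whole lungs of adult females and was hybridised to 6 arrays. The 3 AKR_F1 arrays hold offspring of AKR/J x FVB/NJ and the 3 DBA_F1 arrays offspring of DBA/2J x FVB/NJ. All animals thus carried an FVB/NJ chromosome set, and their lungs were snap frozen after cervical dislocation under Avertin. The comparison asks for basal differences in lung expression between the genotypes. Nothing in the labels ties an array to an animal of its own, so the p-values measure only the spread between these samples, which may be technical.

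Values are log2 signals as deposited, so a difference of 1 is a doubling of signal. The array medians lay between 5.46 and 5.49, and the arrays correlated at 0.986 to 0.997 across all probe sets. The 6 lung markers averaged 13.43 to 13.65 on the arrays, so the lung label held on all of them. The files used here hold no detection calls. A mean of 4.72, the level of the lowest 40% of probe sets, therefore serves as a guide to low signal. By mean over all 6 arrays 7 member probe sets of 4 genes (Dntt, Cd8a, Cd8b1 and Cd4) lay above it. On AKR_F1 replicate 3 several thymus genes stood far above the other arrays, and on AKR_F1 replicate 1 some of these did too, so group values below are also given without these arrays.

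Promoter sequence is shown for the thymocyte genes Rag1, Dntt and Cd8a, which were high together on AKR_F1 replicates 1 and 3, and for the thymic epithelium gene Psmb11, which was low on every array. The windows come from RefSeq (GRCm38.p6) and run from 250 bases before to 50 bases after the start of the gene, 5′ to 3′ on its strand. They lie at chr2:101649483-101649782 (minus strand) for Rag1, chr19:41029025-41029324 (plus strand) for Dntt, chr6:71373177-71373476 (plus strand) for Cd8a and chr14:54625060-54625359 (plus strand) for Psmb11. Capitals mark matches on either strand to short motifs. CAGNTG is a form of the E box, which E proteins bind. TGTGGT is the motif of Runx factors. The Gata motif searched was AGATAA. The core that Foxn1 binds was written as GACGC.
Rag1: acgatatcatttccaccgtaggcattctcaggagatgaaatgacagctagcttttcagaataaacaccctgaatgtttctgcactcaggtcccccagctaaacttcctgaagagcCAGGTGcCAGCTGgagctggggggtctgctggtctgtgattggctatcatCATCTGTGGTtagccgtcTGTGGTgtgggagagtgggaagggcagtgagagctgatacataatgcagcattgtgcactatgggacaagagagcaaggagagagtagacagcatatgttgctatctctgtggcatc
Dntt: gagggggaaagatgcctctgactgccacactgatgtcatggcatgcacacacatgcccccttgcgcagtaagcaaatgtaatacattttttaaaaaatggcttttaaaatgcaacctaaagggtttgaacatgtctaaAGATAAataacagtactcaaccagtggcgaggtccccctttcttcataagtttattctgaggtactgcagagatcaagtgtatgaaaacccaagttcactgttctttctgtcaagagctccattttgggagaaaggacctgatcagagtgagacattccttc
Cd8a: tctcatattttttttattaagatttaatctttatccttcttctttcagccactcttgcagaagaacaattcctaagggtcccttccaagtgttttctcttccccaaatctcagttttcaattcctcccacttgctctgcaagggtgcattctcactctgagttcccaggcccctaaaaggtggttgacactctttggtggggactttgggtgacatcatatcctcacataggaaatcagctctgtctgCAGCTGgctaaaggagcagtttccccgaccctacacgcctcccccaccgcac
Psmb11: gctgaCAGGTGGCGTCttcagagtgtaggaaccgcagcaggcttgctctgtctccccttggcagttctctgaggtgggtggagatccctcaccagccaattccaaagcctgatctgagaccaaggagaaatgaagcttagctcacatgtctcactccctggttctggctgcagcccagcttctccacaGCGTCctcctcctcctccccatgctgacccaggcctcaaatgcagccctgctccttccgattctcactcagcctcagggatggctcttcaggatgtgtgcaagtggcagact
Rag1 held 3 E boxes and 2 Runx motifs, and 1 E box shares letters with a Runx motif. Dntt held 1 Gata motif and Cd8a 1 E box. Psmb11 held 1 E box and 2 GACGC cores. Foxn1's own window held 0 such cores, and 1 of the 9 windows of the thymocyte gene Arpp21 held 2. Of all 32851 windows of this length in the table, 51.4% held at least 1 CAGNTG, 16.8% TGTGGT, 27.2% GACGC and 11.2% AGATAA, and 8.15% held GACGC at 2 or more places. These matches describe letters in the windows only. For Cd4, Cd8b1 and Prss16 no window was used here. By RefSeq's gene table the members are spread over the genome: Cd8a, Cd8b1 and Cd4 lie on chromosome 6, and the others on 7 different chromosomes (Rag1 on 2, Dntt on 19, Arpp21 on 9, Ptcra on 17, Prss16 on 13, Foxn1 on 11 and Psmb11 on 14).

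Rag1 encodes the catalytic subunit of the recombinase that cuts antigen receptor genes, and its transcript was the most variable member. Its signal was 6.51, 3.08 and 8.55 on AKR_F1 replicates 1, 2 and 3 and 3.004, 2.84 and 2.90 on DBA_F1 replicates 1, 2 and 3. AKR_F1 replicate 3 was highest, AKR_F1 replicate 1 second, and the other 4 arrays lay at low signal. Of these AKR_F1 replicate 2 was above all 3 DBA_F1 arrays, so the groups did not overlap. It lay 0.16 log2 above the DBA_F1 mean, but differed from DBA_F1 replicate 1 by less than the DBA_F1 SD of 0.083 (n = 3). Against the DBA_F1 mean the signal was 49.6-fold higher on AKR_F1 replicate 3 and 12.0-fold higher on AKR_F1 replicate 1. Such folds are ratios of deposited signals: where the DBA_F1 mean lies below the 4.72 guide, as for Rag1, Dntt, Arpp21 and Prss16, the base may be background, so the fold need not be that of the transcript. Over the 6 arrays its range of 5.71 log2 was the 32nd largest of all 45037 probe sets, and the signal stood at the 87.3 percentile of AKR_F1 replicate 3, the 63.3 percentile of AKR_F1 replicate 1 and the 14.2 percentile of AKR_F1 replicate 2.

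Dntt encodes terminal deoxynucleotidyl transferase, which adds bases without a template at the receptor gene joints. Its brightest probe set read 5.86, 4.79 and 7.83 on the AKR_F1 arrays and 4.38, 4.58 and 4.59 on the DBA_F1 arrays. AKR_F1 replicates 3 and 1 again led, in the order seen for Rag1, and the groups did not overlap. AKR_F1 replicate 3 was 9.92-fold and AKR_F1 replicate 1 2.54-fold above the DBA_F1 mean. Of the other 2 Dntt probe sets, 1 read 5.37 on AKR_F1 replicate 3 and 2.60 to 3.26 on the rest, and 1 read 4.10 on that array and 3.34 to 3.66 on the rest.

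Cd8a and Cd8b1 encode the alpha and beta chains of the CD8 co-receptor, which binds MHC class I. Cd8a by its brightest probe set had 6.43, 5.70 and 7.90 on the AKR_F1 arrays and 5.38, 5.67 and 5.27 on the DBA_F1 arrays. For Cd8b1 the signal was 6.70, 6.24 and 8.30 in AKR_F1 and 5.92, 6.04 and 5.82 in DBA_F1. Both chains were highest on AKR_F1 replicate 3, by 5.52-fold (Cd8a) and 5.17-fold (Cd8b1) over the DBA_F1 mean, and second on AKR_F1 replicate 1, by 1.99-fold and 1.71-fold. On AKR_F1 replicate 2 both lay just above the highest DBA_F1 array. Unlike Rag1, their brightest probe sets kept a signal above the 4.72 guide on every array, while another Cd8a probe set read 3.16 to 4.13. The 5 probe sets of Cd8a did not respond alike: on AKR_F1 replicate 3 they lay between 0.30 and 2.46 log2 above the DBA_F1 mean.

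Cd4 encodes the co-receptor that binds MHC class II, and it varied much less. By its brightest probe set it read 6.76, 6.42 and 6.98 on the AKR_F1 arrays and 6.34, 6.52 and 6.27 on the DBA_F1 arrays. The order of the top arrays was that of Rag1, but AKR_F1 replicate 2 lay below DBA_F1 replicate 2, so the groups overlapped. AKR_F1 replicate 3 was 1.52-fold above the DBA_F1 mean, against an SD of 0.13 log2 among the DBA_F1 arrays.

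Arpp21, also known as Tarpp, encodes a cAMP-regulated phosphoprotein of brain and of immature thymocytes. Its brightest probe set read 3.67, 2.90 and 5.74 on the AKR_F1 arrays and 3.54, 3.26 and 3.13 on the DBA_F1 arrays. Only AKR_F1 replicate 3 stood out among the 6, at 5.36-fold above the DBA_F1 mean, while AKR_F1 replicate 1 lay near DBA_F1 replicate 1. A second probe set had the same shape (4.75 on AKR_F1 replicate 3 and 2.55 to 3.10 on the rest), and the other 3 spanned 0.33 to 0.50 log2 over the 6 arrays at low signal. Ptcra, the invariant chain that pairs with the beta chain in the pre-T cell receptor, read 3.97, 3.88 and 4.04 in AKR_F1 and 3.79, 3.62 and 3.73 in DBA_F1. Its groups did not overlap, but all 6 values were below the 4.72 guide and spanned 0.42 log2.

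**Figure D1:**
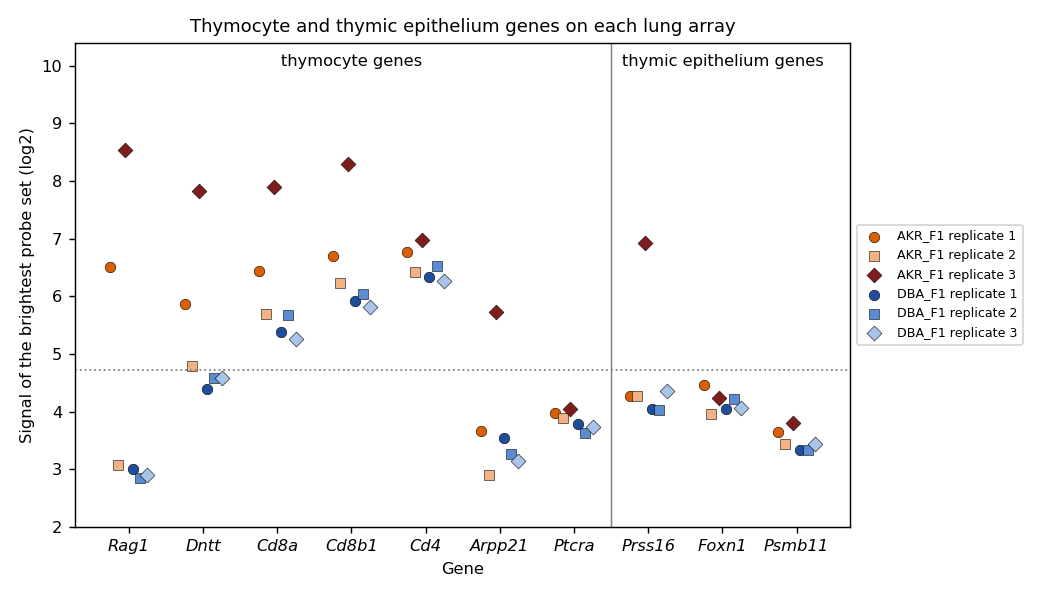
Log2 signal of the brightest probe set of each gene (vertical axis) on the 6 arrays, 7 thymocyte genes at the left and 3 thymic epithelium genes at the right of the vertical line; the dotted line is the 4.72 guide to low signal. AKR_F1 replicate 3 reads 8.55 for Rag1 and 6.93 for Prss16, while AKR_F1 replicate 1 reads 6.51 for Rag1 and 4.27 for Prss16.

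Among the thymic epithelium genes Prss16 had another order of arrays than Rag1. It encodes thymus-specific serine protease, an enzyme of cortical epithelium linked to peptide processing for MHC class II. Prss16 read 4.27, 4.27 and 6.93 on the AKR_F1 arrays and 4.04, 4.03 and 4.35 on the DBA_F1 arrays. AKR_F1 replicate 3 was 6.92-fold above the DBA_F1 mean, and AKR_F1 replicate 1, second for Rag1, Dntt, Cd8a and Cd8b1, lay here below DBA_F1 replicate 3 and level with AKR_F1 replicate 2.

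Foxn1, the transcription factor that thymic epithelium needs to develop, and Psmb11, the beta5t subunit of the thymoproteasome of cortical epithelium, were low on every array. The brighter Foxn1 probe set had 4.46, 3.95 and 4.23 in AKR_F1 and 4.05, 4.21 and 4.07 in DBA_F1, with AKR_F1 replicate 1 highest and AKR_F1 replicate 2 lowest. Its other probe set read 2.92 to 3.38 over all 6 arrays. Psmb11 had 3.64, 3.44 and 3.80 in AKR_F1 and 3.33, 3.33 and 3.44 in DBA_F1, with AKR_F1 replicate 3 highest and AKR_F1 replicate 1 second. A low signal on these probe sets says only that a level was not separated from background.

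**Figure D2:**
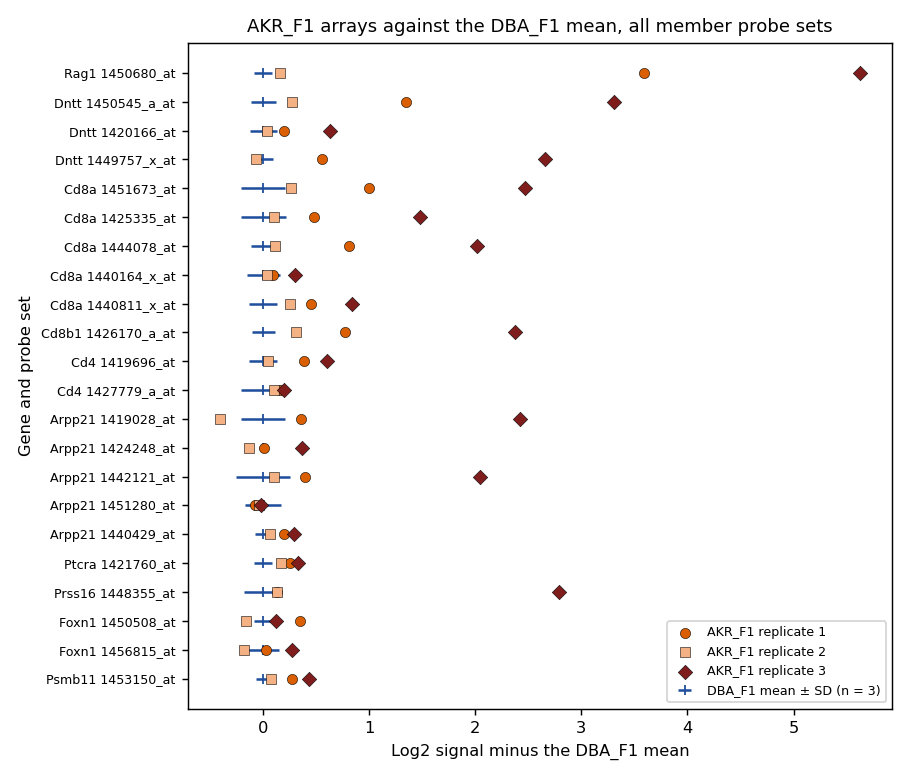
Each of the 22 probe sets (rows) with the AKR_F1 arrays as points at their log2 signal minus the DBA_F1 mean (horizontal axis), and the DBA_F1 mean ± SD (n = 3) as a blue bar. AKR_F1 replicate 3 is 1 log2 or more above the mean for 10 probe sets and AKR_F1 replicate 1 for 2, those of Rag1 and Dntt, while AKR_F1 replicate 2 stays between -0.41 and 0.31 for all 10 brightest probe sets.

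AKR_F1 replicate 3 was the highest of the 6 arrays for 20 of 22 member probe sets, as it was for 13.7% of all probe sets. It lay 1 log2 or more above the DBA_F1 mean for 10 of 22, against 0.444% of all probe sets, and AKR_F1 replicate 1 did so for 2 of 22, against 0.284%. The median range over the 6 arrays was 0.86 log2 for member probe sets and 0.32 for all. Since the genes were chosen for such signal, these counts describe the members and support nothing. The mean of the 7 thymocyte genes was 5.70, 4.71 and 7.05 on the AKR_F1 arrays and 4.62, 4.65 and 4.53 on the DBA_F1 arrays (DBA_F1 SD 0.061). For the 3 thymic epithelium genes the mean was 4.12, 3.89 and 4.99 on the AKR_F1 arrays and 3.81, 3.86 and 3.95 on the DBA_F1 arrays (DBA_F1 SD 0.074). Relative to the DBA_F1 mean the thymocyte genes were thus higher by 1.10 log2 on AKR_F1 replicate 1 and by 2.45 on AKR_F1 replicate 3, and the thymic epithelium genes by 0.25 and 1.11. The value of 1.11 rests on Prss16: the median of the 3 genes' own differences on AKR_F1 replicate 3 was 0.43. For the 7 thymocyte genes that median was 0.77 on AKR_F1 replicate 1 and 2.42 on AKR_F1 replicate 3. In whole lung RNA a difference in the number of cells of a type and a difference in RNA per cell cannot be told apart.

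To compare AKR_F1 replicates 1 and 3 on a linear scale, the signal above the DBA_F1 mean on AKR_F1 replicate 1 was taken as a percent of that on AKR_F1 replicate 3, for the genes at least 1 log2 above the mean on AKR_F1 replicate 3. The SD is that over the 3 DBA_F1 arrays when each serves as the base. It leaves out the error of the readings on AKR_F1 replicates 1 and 3, so it understates the uncertainty. Among thymocyte genes the value was 22.7% ± 0.092 for Rag1, 17.3% ± 0.73 for Dntt, 21.9% ± 2.63 for Cd8a and 17.0% ± 1.55 for Cd8b1. Arpp21 was lower, at 6.38% ± 3.24. For Prss16 it was 1.54% ± 2.19, within its SD of 0. So for 4 thymocyte genes the brightest probe set had 17.0% to 22.7% of its AKR_F1 replicate 3 excess on AKR_F1 replicate 1. Prss16 had no excess there beyond the spread of the DBA_F1 arrays. Cd4, Ptcra, Foxn1 and Psmb11 fell short of the 1 log2 limit, so the percents do not cover all members. On AKR_F1 replicates 1 and 3 they lay 0.39 and 0.60 (Cd4), 0.26 and 0.33 (Ptcra), 0.35 and 0.12 (Foxn1) and 0.27 and 0.43 log2 (Psmb11) above the DBA_F1 mean. With AKR_F1 replicate 2 as the base in place of DBA_F1 the values were 22.6%, 15.4%, 18.4% and 11.9% for Rag1, Dntt, Cd8a and Cd8b1, 11.4% for Arpp21 and -0.095% for Prss16. The other member probe sets that reached 1 log2 on AKR_F1 replicate 3 gave 8.84% ± 1.08 for Dntt, below its brightest probe set, 22.0% ± 6.77 and 24.5% ± 1.99 for Cd8a, and 10.1% ± 5.62 for Arpp21.

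Other genes of the same cells give more points on both sides. Of 16 other genes of developing T cells 14 were measured. On AKR_F1 replicate 3, 5 of them were 1 log2 or more above the DBA_F1 mean, against 0.396% of all genes. Not all of the list was higher there: Cd1d1, Gata3, Notch1, Dtx1 and Hes1 differed from that mean by -0.28, -0.21, -0.10, -0.093 and -0.031. The chemokine receptor Ccr9, which guides thymocytes and binds Ccl25, read 5.76, 4.99 and 7.44 in AKR_F1 and 5.11, 4.87 and 5.04 in DBA_F1. Its other probe sets differed from the DBA_F1 mean on AKR_F1 replicate 3 by 2.20, 1.57, -0.069 and -0.065. The chromatin organiser Satb1 read 8.47, 8.10 and 9.43 in AKR_F1 and 7.96, 7.85 and 8.03 in DBA_F1, and Themis, needed for thymocyte selection, 5.76, 5.65 and 6.94 in AKR_F1 and 5.52, 5.43 and 5.43 in DBA_F1. For Tox, a nuclear factor of CD4 lineage development, the difference between AKR_F1 replicate 3 and the DBA_F1 mean was 1.08 log2, and for the fifth gene, Bcl11b, a factor of T lineage commitment, it was 1.05 by the brightest probe set. Satb1 and Tox each also had a probe set that was flat there (0.024 and 0.0042). The percent on AKR_F1 replicate 1 was 15.8% ± 1.60 for Ccr9, 24.4% ± 2.66 for Satb1, 18.9% ± 4.09 for Bcl11b and 12.8% ± 1.80 for Themis, and for Tox (26.5% ± 13.0) it turned to -21.7% with AKR_F1 replicate 2 as the base. With that base Themis had 5.31%, Ccr9 16.0%, Satb1 19.3% and Bcl11b 15.2%. Rag2, the partner of Rag1 in the recombinase, named after its values were seen, had 5.55, 4.97 and 5.91 in AKR_F1 and 4.90, 4.99 and 4.95 in DBA_F1, with AKR_F1 replicates 3 and 1 in the order of Rag1.

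Of 15 other thymic epithelium genes 14 were measured. On AKR_F1 replicate 3, 1 of them was 1 log2 or more above the DBA_F1 mean, against 0.396% of all genes. This was Ccl25, the thymic chemokine for Ccr9. Ccl25 read 5.19, 5.27 and 7.93 in AKR_F1 and 5.15, 5.02 and 4.98 in DBA_F1. As for Prss16, only AKR_F1 replicate 3 stood out, but here AKR_F1 replicates 1 and 2 lay just above all DBA_F1 arrays. The percent on AKR_F1 replicate 1 was 1.67% ± 1.003, or -0.95% with AKR_F1 replicate 2 as the base. Its second probe set read 4.77 to 4.99 on all arrays. Pax9, a developmental factor of the pharyngeal pouches that is also present in squamous epithelium, had its highest signal on DBA_F1 replicate 2 (6.79) and its lowest on AKR_F1 replicate 2 (5.78). Dll4, the Notch ligand of thymic epithelium that endothelium also makes, and the chemokine Cxcl12 differed on AKR_F1 replicate 3 from the DBA_F1 mean by -0.20 and 0.25. The medullary regulator Aire and the stromal gene Tbata are named after their values were seen. Aire had 5.20, 5.11 and 5.35 in AKR_F1 and 5.35, 5.17 and 5.42 in DBA_F1. Tbata was flat by its brightest probe set (4.59 to 4.91), but its other 3 probe sets were higher on AKR_F1 replicate 3 than the DBA_F1 mean by 2.66, 3.04 and 3.11, and on AKR_F1 replicate 1 by -0.021, 0.17 and 0.091. Median differences of AKR_F1 replicate 3 from the DBA_F1 mean were 0.59 for the other developing T cell genes and 0.045 for the other thymic epithelium genes, beside -0.0063 for all genes.

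**Figure D3:**
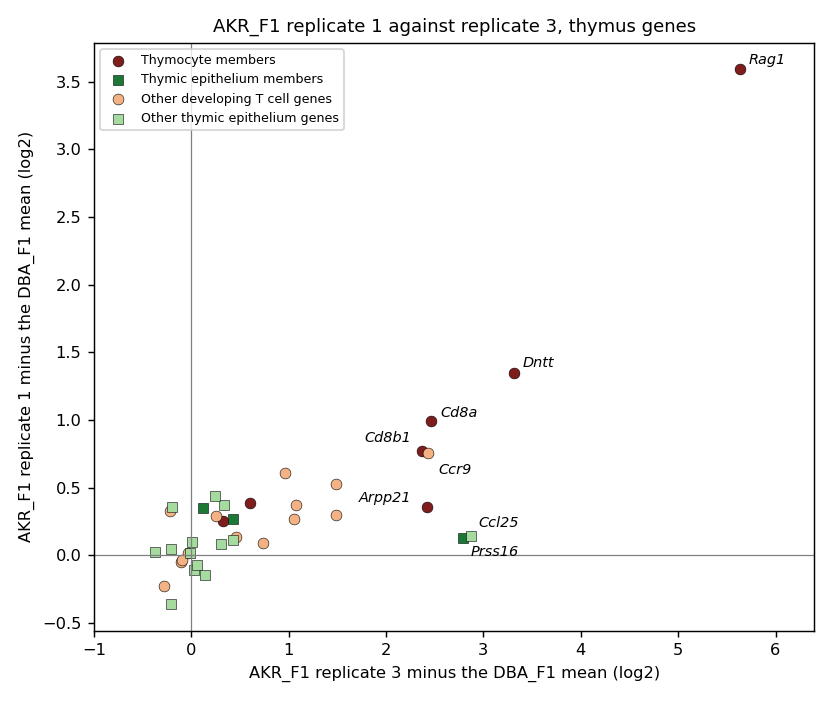
Log2 signal minus the DBA_F1 mean on AKR_F1 replicate 3 (horizontal axis) and AKR_F1 replicate 1 (vertical axis), 1 point for each gene by its brightest probe set. Rag1 (5.63 and 3.59), Dntt (3.31 and 1.35) and Cd8a (2.46 and 0.99) are high on both, whereas Prss16 (2.79 and 0.13) and Ccl25 (2.88 and 0.15) are high on AKR_F1 replicate 3 only.

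The 10 genes outside the members whose signal over the 6 arrays was most like the mean thymocyte profile were found by Pearson correlation, among single-symbol probe sets with an SD over the arrays of at least 0.5. Highest were Ccr9 (r = 0.993), Satb1 (0.987) and Bcl11b (0.983), each by a probe set other than its brightest, whose values are given above. Next came the T cell receptor gene segment Trbv1 (0.978), the kinase Camk4 (0.965), Themis (0.959) and the DNA topoisomerase Top2a of dividing cells (0.955). The last were the MHC class I gene H2-Q2 (0.944), the lymphocyte adaptor Sh2d1a (0.936) and the chymotrypsin-like protease Ctrl (0.931). With 6 arrays that are shared by all genes, and 1 array that dominates the profile, these values are a description and carry no p. Trbv1 read 8.75, 8.51 and 9.81 in AKR_F1 and 8.24, 8.30 and 8.34 in DBA_F1. Ctrl, an enzyme of the exocrine pancreas, followed Prss16 rather than Rag1 in that AKR_F1 replicate 1 (5.25) lay 0.16 log2 above the DBA_F1 mean while AKR_F1 replicate 3 (6.98) lay 1.89 above it.

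Genes of mature T cells were also higher on AKR_F1 replicate 3. Over 12 measured genes the mean was 7.14, 7.15 and 7.72 on the AKR_F1 arrays and 6.97, 7.07 and 7.04 on the DBA_F1 arrays, and AKR_F1 replicate 3 was highest for 11 of 12. Among them Cd247, Cd28 and Lat, parts of T cell receptor signalling, were 1.11, 1.01 and 1.02 above the DBA_F1 mean there and 0.37, -0.040 and 0.34 from it on AKR_F1 replicate 1. Zap70, of the same list, was flat, at 0.013 above the DBA_F1 mean on AKR_F1 replicate 3. The median of the list was 0.79 above the DBA_F1 mean on AKR_F1 replicate 3 and 0.079 above it on AKR_F1 replicate 1. The 9 measured genes of proliferating cells averaged 6.49, 6.30 and 6.94 on the AKR_F1 arrays and 6.32, 6.09 and 6.13 on the DBA_F1 arrays, and AKR_F1 replicate 3 was highest for 9 of 9, with Top2a, Mki67 and Birc5 1.37, 1.19 and 1.17 above the DBA_F1 mean. The 3 measured genes of T cells that have left the thymus (Ccr7, S1pr1 and Klf2) averaged 9.32, 9.64 and 9.61 on the AKR_F1 arrays and 9.07 to 9.60 on the DBA_F1 arrays.

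Rag1 and Dntt are also made by B cell precursors. The 5 measured genes of that list averaged 7.14, 7.38 and 7.40 on the AKR_F1 arrays and 7.25 to 7.33 on the DBA_F1 arrays. AKR_F1 replicate 1, second for Rag1, was lowest. The highest levels in this mean were those of Cd93 (11.6 to 11.9) and Il7r (8.01 to 8.75), and Il7r is also in the mature T cell list. The surrogate light chain genes Vpreb1 (3.63 to 4.26) and Igll1 (4.77 to 4.96) had the lowest. On AKR_F1 replicate 1 the differences from the DBA_F1 mean were -0.397 (Vpreb1), -0.334 (Il7r), -0.134 (Igll1), 0.069 (Vpreb3) and 0.073 (Cd93). Whether B cell precursors added to the Rag1 and Dntt signal was not tested. The 7 measured B cell genes averaged 6.86, 7.21 and 7.33 in AKR_F1 and 6.96 to 7.22 in DBA_F1. The 4 measured genes of dendritic cells with Cd8a averaged 5.94, 5.88 and 5.86 in AKR_F1 and 5.73 to 5.89 in DBA_F1. For plasmacytoid dendritic cells the mean of 4 genes was 7.24, 7.12 and 7.79 in AKR_F1 and 6.99 to 7.07 in DBA_F1, where Ccr9, shared with the thymocyte genes, was the 1 gene over 1 log2 above the DBA_F1 mean and Siglech had 5.52, 5.56 and 5.91 in AKR_F1 and 5.26, 5.86 and 5.66 in DBA_F1.

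Genes of squamous epithelium, skeletal and heart muscle, adipose tissue and lymph node stroma also differed between arrays. Their part in the values above was not tested. The squamous epithelium genes averaged 4.87, 4.76 and 8.99 on the AKR_F1 arrays and 8.54 to 9.24 on the DBA_F1 arrays, and the skeletal muscle genes 5.41, 4.85 and 9.15 and 8.55 to 9.02. Both means were thus high on AKR_F1 replicate 3 and on all DBA_F1 arrays, where Rag1 was low, and low on AKR_F1 replicate 1, where Rag1 was 6.51. Not every gene followed the means: Krt6a read 5.62 to 5.83 on all arrays. Myh2 read 3.64 to 3.82 on the DBA_F1 arrays and 3.99 on AKR_F1 replicate 1. Myh4 read 3.86 on AKR_F1 replicate 3 and 3.97 on AKR_F1 replicate 1. Adipose genes averaged 7.39, 6.28 and 6.11 in AKR_F1 and 8.32 to 9.56 in DBA_F1, and heart muscle genes 10.03, 10.21 and 9.83 in AKR_F1 and 9.59 to 11.51 in DBA_F1. Of the lymph node stroma list 3 genes were measured. In it Glycam1, a ligand of high endothelial venules, was high on AKR_F1 replicate 3 (7.58), DBA_F1 replicate 2 (9.70) and DBA_F1 replicate 3 (8.21) and lay at 3.53 to 3.99 on the others, which is not the order of the thymocyte genes. Cxcl13 ranged from 6.39 (DBA_F1 replicate 1) to 8.50 (DBA_F1 replicate 2), and Madcam1 from 3.90 to 4.24.

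**Figure D4:**
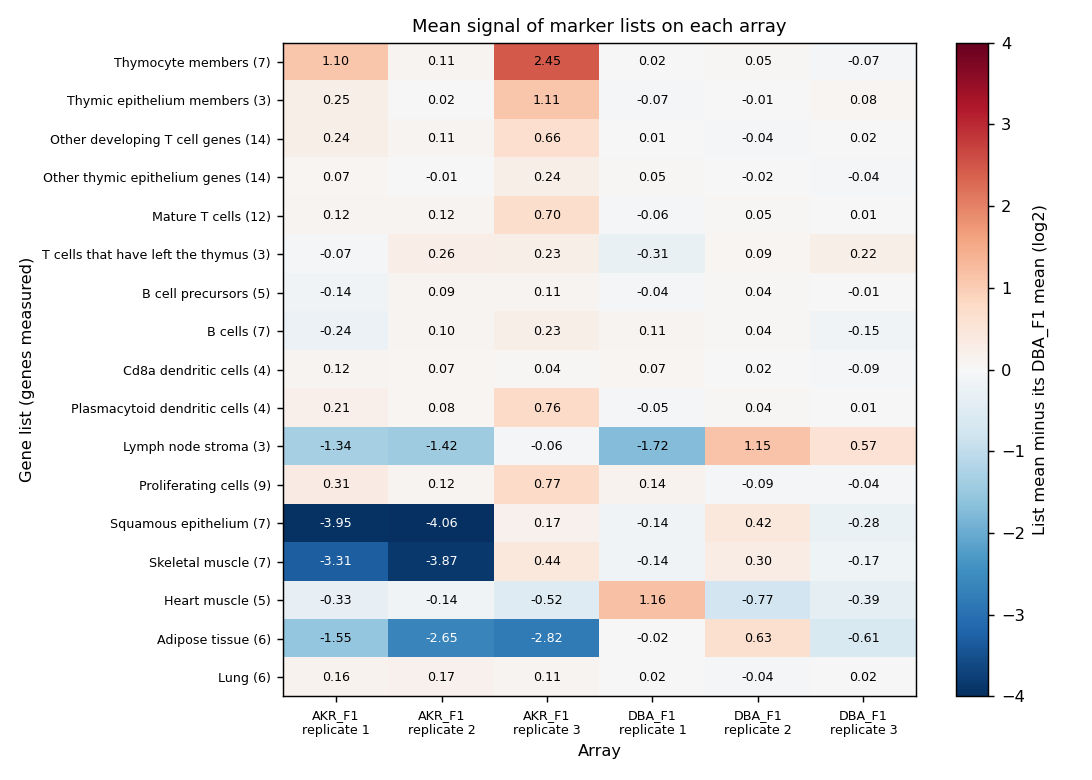
Mean log2 signal of each marker list (rows, with the number of genes measured) on each array (columns), minus the list's DBA_F1 mean; red is higher and blue lower. The thymocyte row is 1.10, 0.11 and 2.45 on AKR_F1 replicates 1 to 3, while the squamous and skeletal muscle rows are low on AKR_F1 replicates 1 and 2 alone.

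Between the genotypes none of these genes passed the test. In the limma fit over all 45037 probe sets, 0 of 22 member probe sets had an adjusted p under 0.05, against 1.53% of all probe sets (687). Without adjustment 10 of 22 had p under 0.05, against 14.2% of all. The means were higher in AKR_F1 for 21 of 22, and the groups did not overlap, with AKR_F1 higher, for 7 of 22, against 11.1% of all and 19.1% in either direction. The median difference was 0.43 log2 for member probe sets and 0.012 for all. The rule and these comparisons use the same values, so nothing is read from these shares. Rag1 differed by 3.13 ± 1.14 log2 (moderated SE; means of 6.04 and 2.92 over 3 arrays each; adjusted p = 0.277 in limma), and Dntt by 1.64 ± 0.64 (adjusted p = 0.304). Cd8a differed by 1.24 ± 0.48, Cd8b1 by 1.15 ± 0.45 and Cd4 by 0.34 ± 0.14 (limma adjusted p of 0.296, 0.307 and 0.333). The other values were 0.79 ± 0.61 for Arpp21, 0.25 ± 0.087 for Ptcra, 1.02 ± 0.64 for Prss16, 0.10 ± 0.13 for Foxn1 and 0.26 ± 0.10 for Psmb11.

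For some genes the arrays within AKR_F1 differed far more than those within DBA_F1. The SD of Rag1 was 2.76 in AKR_F1 and 0.083 in DBA_F1, and that of Prss16 1.54 and 0.18, while that of Ptcra was 0.081 and 0.084. Without AKR_F1 replicate 3 the difference was 1.88 for Rag1, 0.81 for Dntt, 0.63 for Cd8a, 0.54 for Cd8b1, 0.13 for Prss16 and -0.027 for Arpp21. Without AKR_F1 replicate 1 it was 2.90 for Rag1, 1.79 for Dntt and 1.46 for Prss16, and -0.018 for Foxn1. Without AKR_F1 replicate 2 Rag1 was called (4.61 ± 0.52, limma adjusted p = 0.0244), the 1 call among the 22 in that fit, against 0.548% of all probe sets. AKR_F1 replicate 2 alone against DBA_F1, a comparison added after the data were seen in which that array is assumed to vary like the others, gave 0.16 for Rag1, 0.27 for Dntt, 0.13 for Prss16, -0.41 for Arpp21 and -0.16 for Foxn1, with 0 of 22 probe sets called, against 0.602% of all, and 0 of 22 with an unadjusted p under 0.05, against 9.57% of all.

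**Figure D5:**
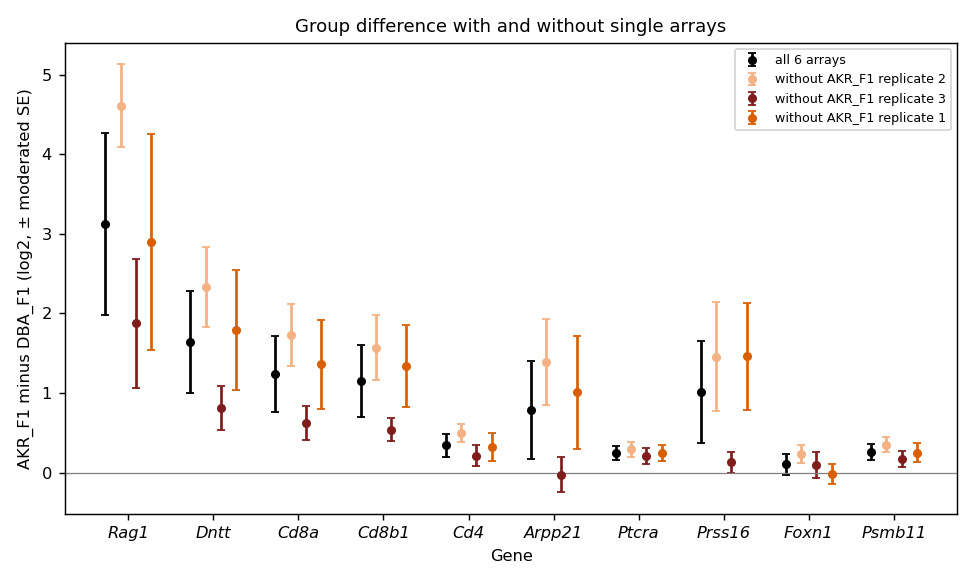
AKR_F1 minus DBA_F1 difference (log2, vertical axis) of the brightest probe set of each gene, with the moderated SE as bars, over all 6 arrays and without each AKR_F1 array in turn. Rag1 moves from 3.13 to 4.61 without AKR_F1 replicate 2 and to 1.88 without AKR_F1 replicate 3, and Prss16 from 1.02 to 0.13 without AKR_F1 replicate 3.

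Of the other lists, 0 measured genes passed the limma test among the other developing T cell genes, other thymic epithelium genes, mature T cells, T cells that have left the thymus, B cell precursors, B cells, both dendritic cell lists, lymph node stroma, proliferating cells, squamous epithelium and heart muscle. With an unadjusted p under 0.05 there were 4 of 14 other developing T cell genes, 2 of 14 other thymic epithelium genes, 5 of 12 mature T cell genes and 5 of 9 genes of proliferating cells, against 14.2% of all probe sets. In the remaining lists just named there were 0 to 3. Of the skeletal muscle genes 1 was called lower in AKR_F1 and of the 6 adipose genes 4 were, against 0.642% of all probe sets, and of the 6 lung markers 1 was called higher, against 0.884%.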

How the data were processed

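Total RNA was labelled with biotin and hybridised to Affymetrix 3′ arrays, per the labels. The deposited values are log2 signals, 1 for each probe set and array, which from their values were scaled between arrays and not centred per gene. Per the submitters' processing notes MAS5 and RMA were used, with no word on which gave these values. Values were used as deposited, after 64 control probe sets were left out. Genes were named by the platform annotation, and a gene's level is that of its probe set with the highest mean.

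All 45037 probe sets were fitted with limma 3.58.1 in R 4.3.3 (lmFit, eBayes with a trend, two-sided, group as the only term, 4 residual and 3.83 prior degrees of freedom), with Benjamini-Hochberg adjustment and calls at an adjusted p under 0.05. The fit was tested on simulated data. All 10 members were named, with up to 4 genes of each list by range over the arrays and the 10 genes most like the thymocyte profile; other names were chosen after their values were seen. The members and lists were chosen with earlier results of these data known. The number of arrays limits the precision. Alternatives were quantile normalization, median centring, a 40% filter on low signal, other eBayes settings, array weights, a block for the replicate number, single arrays left out and other summaries of probe sets.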

Additional observations from a re-analysis of the deposited data

How the results depend on the processing

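Over the 10 genes and all alternatives 149 of 154 differences kept their direction and their side of the threshold. Some of these could not differ: the probe set with the largest SD was the brightest one for all 10 genes. The mean of all probe sets could not differ for genes with 1 probe set. A change of size alone was not counted, as for Prss16 (1.02 with all arrays and 0.13 without AKR_F1 replicate 3). Arpp21 reversed to -0.027 without AKR_F1 replicate 3 (range with 1 array left out -0.027 to 1.39) and to -0.41 for AKR_F1 replicate 2 alone against DBA_F1, and Foxn1 to -0.018 without AKR_F1 replicate 1 (range -0.018 to 0.24) and to -0.16 for AKR_F1 replicate 2 alone. Rag1 was called in 1 fit, without AKR_F1 replicate 2. The count of member probe sets called ran from 0 to 1 and that of all probe sets (687 with all arrays) from 245 to 1211 with 1 array left out: 245, 247 and 1211 without AKR_F1 replicates 1, 2 and 3, and 276 without DBA_F1 replicate 2. That count was 271 for AKR_F1 replicate 2 alone; the cause was not tested. The replicate numbers share only a number: same-numbered arrays correlated at 0.209, -0.161 and -0.0366 in their deviations from the group means, and with the replicate number as a block 0 of 22 member probe sets and 623 of all were called. With the mean of all probe sets the thymocyte genes were 0.90 (AKR_F1 replicate 1) and 1.91 (AKR_F1 replicate 3) above the DBA_F1 mean, and with the median of the genes' own differences 0.77 on AKR_F1 replicate 1. With that median the thymic epithelium genes were 0.43 above it on AKR_F1 replicate 3. Signals below the 4.72 guide, as for Ptcra, Foxn1 and Psmb11, limit what these probe sets can show.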

Other observations

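Genes of the exocrine pancreas, which makes digestive enzymes, were high on AKR_F1 replicate 3 and on no other array. They were noticed among the genes most like the thymocyte profile, and the list was drawn up after their values were seen, so no test is given. Carboxypeptidase A1 (Cpa1) read 4.37, 3.74 and 6.61 in AKR_F1 and 4.07, 4.22 and 4.22 in DBA_F1. The chymotrypsinogen gene Ctrb1 read 4.95, 4.69 and 7.37 in AKR_F1 and 4.67, 4.97 and 5.02 in DBA_F1, and the elastase gene Cela2a 3.27, 3.25 and 6.48 in AKR_F1 and 3.30, 2.96 and 3.25 in DBA_F1. Of 13 such genes AKR_F1 replicate 3 was highest for 13, by 0.45 to 3.31 log2 above the DBA_F1 mean, while AKR_F1 replicate 1 lay -0.28 to 0.20 from it. The islet hormone genes Ins2 (5.64 to 5.86) and Gcg (2.45 to 2.72) were flat over the 6 arrays. As for Prss16 and Ccl25, and unlike Rag1, AKR_F1 replicate 1 did not stand out.

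The MHC class I-like gene H2-T3, which encodes the TL antigen of thymocytes and intestine, read 5.10, 4.95 and 6.42 in AKR_F1 and 4.99, 5.09 and 5.24 in DBA_F1 by 1 of its probe sets. AKR_F1 replicate 3 was thus 1.31 log2 above the DBA_F1 mean, and AKR_F1 replicate 1 was level with it (-0.0071). By its other probe set AKR_F1 replicate 3 was 0.78 and AKR_F1 replicate 1 0.23 above it. Related class I genes may share these probes, so the gene is uncertain.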
